A study of Brassica rapa subsp. pekinensis with 6 samples.

Results

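*BrSMP1* (Bra023741), *BrGLN1.3* (Bra021276) and *BrROT3* (Bra011678) are 3 of the 41173 *Brassica rapa* genes on the Br135K microarray. They were chosen because the study names them as genes with a high level in the inbred line Kenshin at 22 °C and a further rise at 28 °C. The study also counts them among genes that rose at 28 °C over both other temperatures in both of its lines. That choice used the measured values, so their levels and ratios are given here as a description and without a test. The samples were shoots of the Chinese cabbage inbred lines Kenshin and Chiifu (*B. rapa* ssp. *pekinensis*), and the labels name no transgene or mutation in either line. Plants of both lines spent about 3 weeks at 22 °C, 2 days at 12 °C and finally 3 h at 28 °C, with 1 sample per line at the end of each step. The labels thus give 6 samples, 1 for each line and temperature. The methods state that the experiment was repeated with separately prepared RNA, and they speak of means, but the labels do not settle whether a deposited value is 1 array or a mean of repeats. With a single value per gene and condition, no value carries an error.

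The 3 genes act in different processes. The pre-mRNA of plant genes loses its introns in a pair of chemical steps on the spliceosome, and Arabidopsis SMP1 (SWELLMAP 1) is a zinc-finger protein related to yeast Slu7, a factor of the second of these steps. Glutamine synthetase joins ammonium to glutamate and is the entry point of inorganic nitrogen into amino acids, and GLN1.3 is a cytosolic form of it. ROT3 (ROTUNDIFOLIA 3) of Arabidopsis is a cytochrome P450 of brassinosteroid synthesis, the pathway of the steroid hormones that promote cell elongation, and it is known for its effect on leaf length. These roles come from Arabidopsis and yeast.

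Levels are given as probe intensity (PI), the linear summary of the probes of a gene, which lie near its 3′ end and were designed on the Chiifu sequence. The median PI over all genes lay between 965 and 1034 in the 6 samples. The feature of random sequence, a negative control, had a PI of 26.9 to 30.5. A gene counted as detected when its PI was over 500 in at least 1 sample, which held for 26948 genes, all 3 genes among them. PI of different genes depends on their probes, so each gene is compared only with itself. The array also holds 14 features named for the GFP and Bar marker genes. Their PI was between 9.70 and 1517, and their ratios between samples are given beside those of the 3 genes. The pair of features numbered 7 had a PI of 9.70 to 23.1, below the random-sequence feature in every sample. Its ratios set the lower end of several of the ranges given below. Of these 14 features, 9 were highest in Chiifu at 28 °C, with a median ratio of 1.76 for 28 over 22 °C in Chiifu and of 1.17 in Kenshin. The part of this shift in the results for the 3 genes was not tested.

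*BrSMP1* was highest at 28 °C in both lines. In Kenshin, its PI was 664 at 22 °C, followed by 589 at 12 °C and by 1712 at 28 °C. In Chiifu, its PI was 141 at 22 °C, followed by 232 at 12 °C and by 1189.6 at 28 °C. Both samples at 28 °C lay above the other 4, an order that 12.1% of the detected genes also had. The Chiifu sample at 28 °C lay above the Kenshin samples at 22 and 12 °C, so that the lines overlapped. The smallest step in the order of the 6 samples was 1.13-fold, between Kenshin at 22 and at 12 °C, and no replicate shows whether a step of that size exceeds the spread.

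*BrGLN1.3* separated the lines at every temperature. In Kenshin, its PI was 2798 at 22 °C, followed by 3121 at 12 °C and by 7326 at 28 °C. In Chiifu, its PI was 1197 at 22 °C, followed by 1053 at 12 °C and by 2579 at 28 °C. Every Kenshin sample lay above every Chiifu sample, as was the case for 10.5% of the detected genes. The margin was small, since Kenshin at 22 °C exceeded Chiifu at 28 °C 1.08-fold. The values at 22 and 12 °C were also close, with a step of 1.12-fold in Kenshin and of 1.14-fold in Chiifu. *BrGLN1.3* was the only 1 of the 3 genes with a PI over 500 in all 6 samples.

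*BrROT3* lay under the PI minimum in 5 of the 6 samples. In Kenshin, its PI was 395 at 22 °C, followed by 205 at 12 °C and by 842 at 28 °C. In Chiifu, its PI was 52.1 at 22 °C, followed by 139 at 12 °C and by 349.6 at 28 °C. It counted as detected through the Kenshin sample at 28 °C alone, and with a PI minimum of 1000 it drops out of every count of detected genes. Its lowest value, in Chiifu at 22 °C, lay nearest to the random-sequence feature (27.1 in that sample). The highest of the 6 values was 16.2 times the lowest, against 12.2 times for *BrSMP1* and 6.96 times for *BrGLN1.3*. With 50 added to each PI, it was 8.74 times for *BrROT3*, 9.24 times for *BrSMP1* and 6.69 times for *BrGLN1.3*, so that the order of *BrROT3* and *BrSMP1* turned. Chiifu at 28 °C and Kenshin at 22 °C differed only 1.13-fold.

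**Figure D1:**
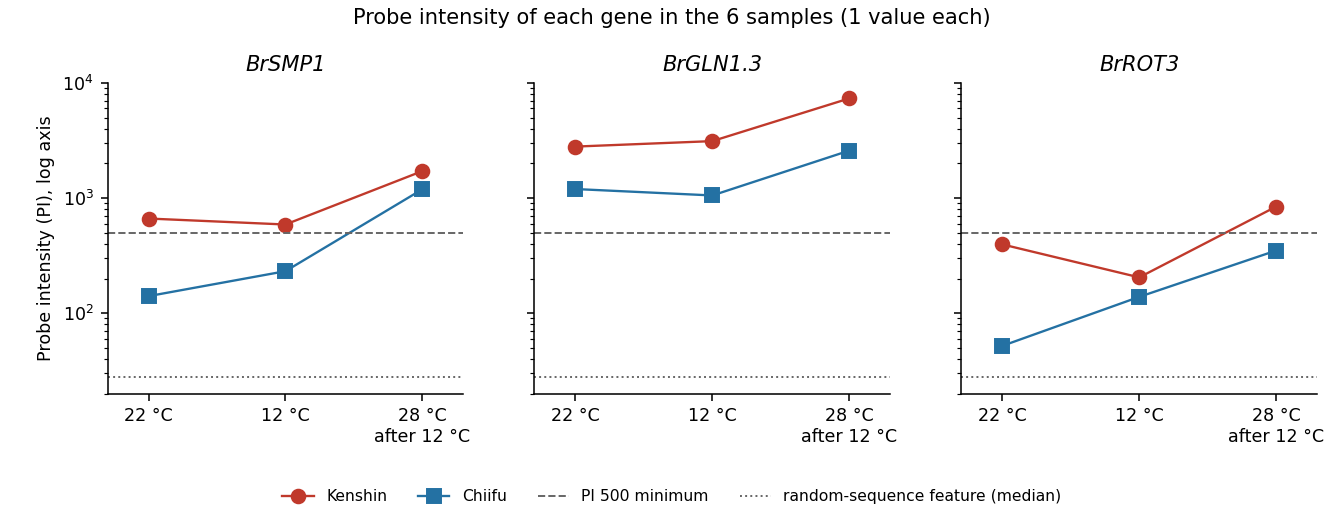
Probe intensity (log axis) of *BrSMP1*, *BrGLN1.3* and *BrROT3* at each of the temperatures (22 °C, then 12 °C, then 28 °C) in Kenshin (circles) and Chiifu (squares), 1 value per point, with the PI minimum of 500 (dashed) and the median of the random-sequence feature (dotted). Kenshin lies above Chiifu at each temperature for each gene, and *BrROT3* in Chiifu at 22 °C (52.1) is the point nearest to the random-sequence feature.

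The comparison of the lines at 22 °C gave the basal difference, which was 1 of the values that chose the genes. The ratio of Kenshin to Chiifu was 4.72 for *BrSMP1*, 2.34 for *BrGLN1.3* and 7.60 for *BrROT3*. All 3 were past 2-fold, as were 8.55% of the detected genes. A higher ratio was found for 552 genes in the case of *BrSMP1*, for 1712 genes in that of *BrGLN1.3* and for 297 genes in that of *BrROT3*. With 50 added to each PI, the ratio was 3.74 for *BrSMP1* and 2.28 for *BrGLN1.3*, while that of *BrROT3* came to 4.37, since its Chiifu value is low. The marker features had ratios between 0.794 and 2.55 at 22 °C, with a median of 1.18. The upper end came from the pair of features numbered 6, a pair singled out after its values were seen, and the other 12 features reached 1.88. *BrGLN1.3* lay inside the range of all 14 and above that of the 12, and the other 2 genes lay above both, with and without the added 50. The ranges themselves are of PI as deposited.

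At 12 °C the ratio of Kenshin to Chiifu was 2.54 for *BrSMP1*, 2.96 for *BrGLN1.3* and 1.48 for *BrROT3*. A ratio of 2 was thus passed by 2 of the 3 genes and by 5.18% of the detected genes. The marker features ranged between 0.524 and 1.46, so that *BrROT3* was just outside their range. With 50 added to *BrROT3* alone, its ratio of 1.35 was inside this range of deposited values. *BrROT3* was the gene with the largest ratio at 22 °C and the smallest at 12 °C.

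At 28 °C the ratio was 1.44 for *BrSMP1*, 2.84 for *BrGLN1.3* and 2.41 for *BrROT3*, and 10.3% of the detected genes passed 2-fold. *BrSMP1* did not pass it, and 5529 detected genes had a higher ratio. The marker features ranged between 0.556 and 4.38 at this temperature, with a median of 0.792. All 3 genes lay inside this range, but the upper part of it came from the pair numbered 6 alone, and the other 12 features reached only 0.999, below all 3 genes. *BrGLN1.3* was past 2-fold at all 3 temperatures, as were 2.01% of the detected genes.

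**Figure D2:**
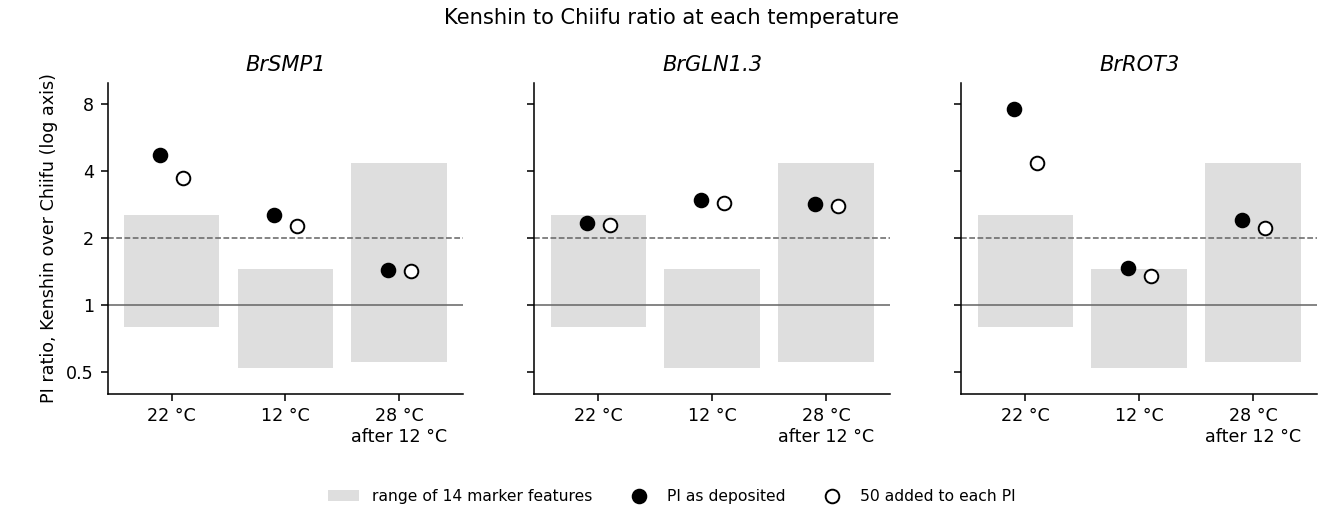
Ratio of PI in Kenshin over Chiifu (log axis) at each temperature, with PI as deposited (filled) and with 50 added to each PI (open). Grey boxes give the range of the 14 marker features from PI as deposited only, the solid line equality and the dashed line 2-fold. The ratio of *BrSMP1* was 4.72 at 22 °C against 2.54 at 12 °C and 1.44 at 28 °C. *BrGLN1.3* stayed between 2.34 and 2.96.

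How the difference between the lines changed from 22 to 28 °C depended on whether ratios or differences of PI were taken, a comparison added after the values had been seen. The line ratio at 28 °C was 0.305 times that at 22 °C for *BrSMP1*, 0.317 times for *BrROT3* and 1.22 times for *BrGLN1.3*. With 50 added to each PI, the value was 0.380 for *BrSMP1*, 0.511 for *BrROT3* and 1.23 for *BrGLN1.3*. In units of PI, Kenshin exceeded Chiifu in *BrSMP1* by 523 at 22 °C, by 358 at 12 °C and again by 523 at 28 °C. The rise of *BrSMP1* from 22 to 28 °C was accordingly 1048.5 in Kenshin and 1049 in Chiifu. For *BrROT3* the difference was 343 at 22 °C, then 66.0 at 12 °C and 492 at 28 °C, so that it was larger at 28 than at 22 °C in units of PI while its ratio was smaller. For *BrGLN1.3* both measures were larger at 28 °C, with a difference of 1601 at 22 °C, then 2068 at 12 °C and 4747 at 28 °C.

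A smaller ratio at 28 °C was common among genes picked for a high ratio at 22 °C. Of the 2303 detected genes at least 2-fold higher in Kenshin at 22 °C, 78.8% had a smaller ratio at 28 °C. Their median ratio was 2.98 at 22 °C, then 1.48 at 12 °C and 1.70 at 28 °C. *BrSMP1* and *BrROT3* were on the side of this majority, and *BrGLN1.3* was not.

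**Figure D3:**
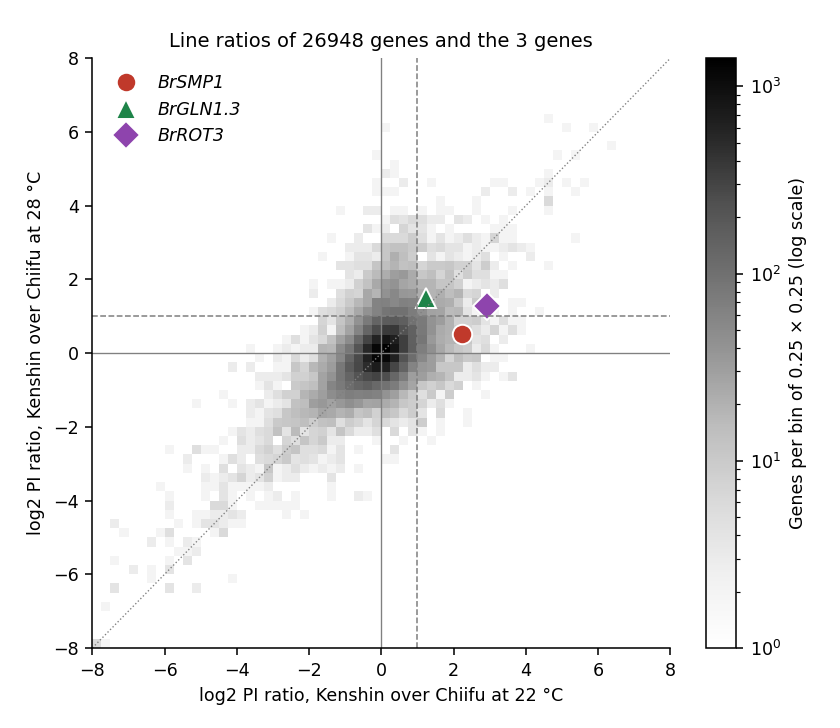
Ratio of Kenshin over Chiifu (log2) at 22 °C (horizontal) and at 28 °C (vertical) for all detected genes, binned and shaded by the number of genes, with *BrSMP1*, *BrGLN1.3* and *BrROT3* marked. Dashed lines mark 2-fold, the dotted line equal ratios, and values past the axis limits are drawn in the outermost bins. *BrSMP1* and *BrROT3* lie to the right of and below the dotted line and *BrGLN1.3* lies just above it.

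The rise by minor warming (28 against 22 °C) was past 2-fold for all 3 genes in both lines. The ratio of 28 to 22 °C for *BrSMP1* was 2.58 in Kenshin and 8.46 in Chiifu. For *BrGLN1.3* it was 2.62 in Kenshin and 2.16 in Chiifu, and for *BrROT3* it was 2.13 in Kenshin and 6.72 in Chiifu. In the background, 6.27% of the detected genes rose at least 2-fold in Kenshin and 5.69% in Chiifu. In Chiifu, 53 detected genes had a higher ratio than *BrSMP1* and 79 had a higher ratio than *BrROT3*. In Kenshin, 862 genes exceeded *BrSMP1* and 1413 genes exceeded *BrROT3*. The genes were chosen for a low Chiifu level at 22 °C relative to Kenshin and for rises in both lines. That choice favours high ratios in Chiifu, and the Chiifu value of *BrROT3* at 22 °C was low (52.1). With 50 added, the ratios in Chiifu were 6.50 for *BrSMP1* and 3.92 for *BrROT3*, and the ratio of *BrROT3* in Kenshin was 2.00. The marker features had ratios of 0.474 to 2.02 in Kenshin (up to 1.38 without the pair numbered 6), below all 3 genes as deposited, and of 0.941 to 2.24 in Chiifu, a range that held *BrGLN1.3*.

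The rise by warming (28 against 12 °C) was likewise past 2-fold for all 3 genes in both lines. The ratio of 28 to 12 °C for *BrSMP1* was 2.91 in Kenshin and 5.14 in Chiifu, and for *BrGLN1.3* it was 2.35 in Kenshin and 2.45 in Chiifu. *BrROT3* was the only 1 of the 3 with the larger ratio in Kenshin, 4.11 against 2.52 in Chiifu. The background was 7.26% of the detected genes in Kenshin and 6.96% in Chiifu. In Chiifu the marker features reached at most 1.94, below all 3 genes. In Kenshin they reached 5.65, above all 3 genes, but only the pair numbered 6 was past 2-fold and the other 12 features reached 1.42.

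Rises by both treatments in both lines were found for 142 genes (0.527%), the 3 genes among them. The study named the 3 genes for such rises, so their place among the 142 follows from the choice. With a PI minimum of 1000 there were 108 such genes among the 23645 then detected, with 2 of the 3 among them and *BrROT3* left out. These comparisons share samples, since both treatments use the sample of the line at 28 °C.

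LT (12 against 22 °C) is not independent of the choice of the genes. In each line it is the quotient of ratios that the choice used, and the samples of both lines at every temperature entered the choice. The values are therefore a description. The lines moved in opposite directions for each of the 3 genes. The ratio of 12 to 22 °C for *BrSMP1* was 0.887 in Kenshin and 1.65 in Chiifu, for *BrGLN1.3* it was 1.12 in Kenshin and 0.880 in Chiifu, and for *BrROT3* it was 0.517 in Kenshin and 2.66 in Chiifu. Opposite signs of any size were also found for 37.3% of the detected genes. Of all detected genes, 16.6% were lower in Kenshin and higher in Chiifu, as *BrSMP1* and *BrROT3* were, and 20.7% were the reverse, as *BrGLN1.3* was. Of the 2303 genes at least 2-fold higher in Kenshin at 22 °C, 43.2% were lower in Kenshin and higher in Chiifu, and 4.04% were the reverse. The marker features ranged between 0.357 and 1.62 in Kenshin and between 0.652 and 2.01 in Chiifu. The values of *BrGLN1.3* lay within these ranges in both lines, as did those of *BrSMP1*. The upper end in Chiifu came from 1 feature of the pair numbered 7, with a PI of 11.5 at 22 °C and 23.1 at 12 °C. *BrSMP1* in Chiifu (1.65) lay within the range only through that feature. *BrROT3* lay above the range of all 14 features in Chiifu alone. In Kenshin (0.517) *BrROT3* lay within the range only through the pair numbered 6, since the other 12 features reached down to 0.592. Its rise in Chiifu was the only 2-fold change by LT among the 3 genes, in a line where 5.36% of the detected genes rose at least 2-fold, and with 50 added it was 1.85-fold. A rise of that size in Chiifu beside a lower value of any size in Kenshin was found for 1.29% of the detected genes. None of the 3 genes rose (5.8%) or fell (6.99%) at least 2-fold in Kenshin by LT, and none fell at least 2-fold in Chiifu (5.01%), where the shares are those of the detected genes.

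A change by LT shared by both lines was fitted with limma over all detected genes, with line as a block and 2 samples per temperature. No gene of the array passed the threshold of 0.05 for the adjusted p in this limma fit (0 of 26948 genes, 3429 or 12.7% at an unadjusted p under 0.05). The estimated log2 change was 0.27 (standard error 0.45) for *BrSMP1*, -0.01 (standard error 0.19) for *BrGLN1.3* and 0.23 (standard error 0.61) for *BrROT3*. Each estimate is the mean of the changes in the lines, which had opposite signs for all 3 genes. For *BrROT3* these were -0.95 in Kenshin and 1.41 in Chiifu. A small estimate therefore does not show that LT left a gene unchanged. With 2 residual degrees of freedom, neither does the absence of genes past the threshold. These estimates are given without a p, since the choice of the 3 genes used the same samples.

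**Figure D4:**
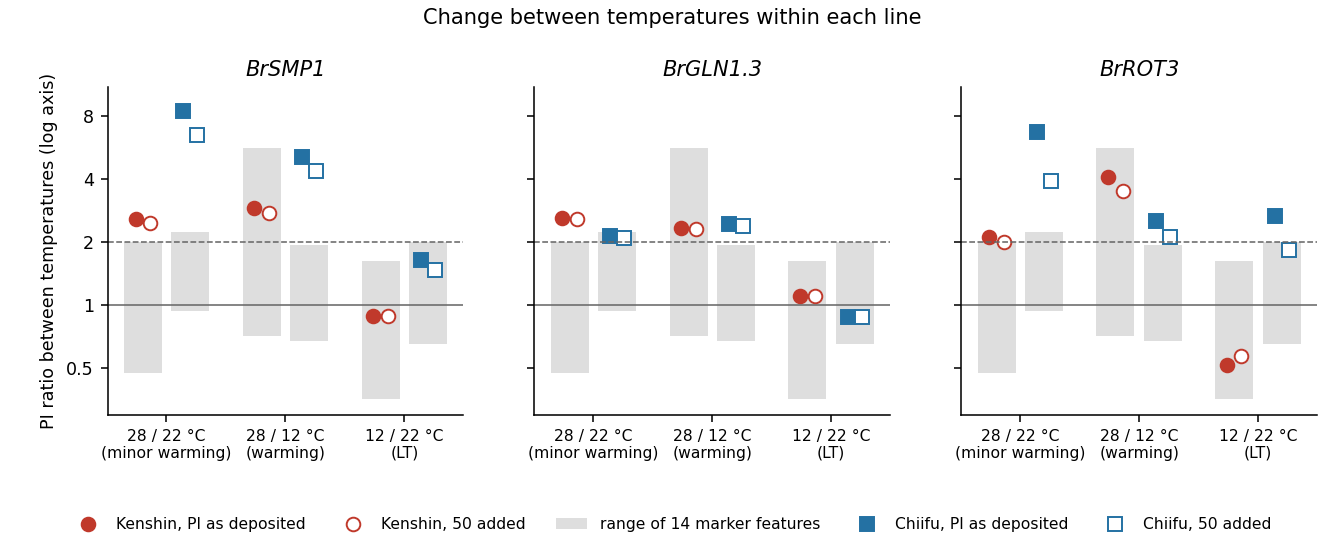
Ratio of PI between temperatures (log axis) in Kenshin (circles) and Chiifu (squares), with PI as deposited (filled) and with 50 added (open). Grey gives the range of the 14 marker features in the same line, from PI as deposited only. Ratios of 28 °C over either other temperature are past 2-fold for all 3 genes, the largest being 8.46 for *BrSMP1* in Chiifu, and the ratios of 12 over 22 °C lie on opposite sides of 1 in the lines.

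Read as Kenshin at least 2-fold over Chiifu at 22 °C together with Kenshin at 28 °C at least 2-fold over both of its other samples, the pattern that marks the 3 genes was met by 72 detected genes (0.267%). With a PI minimum of 1000 it was met by 55 of 23645 genes, *BrSMP1* and *BrGLN1.3* among them and *BrROT3* not. By LT, 24 of the 72 were lower in Kenshin and higher in Chiifu, and 7 were the reverse. Ordered by the smallest of the 3 ratios, *BrSMP1* was at position 26 of the 72 (2.58), *BrGLN1.3* at position 36 (2.34) and *BrROT3* at position 58 (2.13). The gene just inside was Bra037453, annotated by the study as a CC-NBS-LRR disease resistance protein, with a smallest ratio of 2.02. The gene just outside was Bra018581, with a ratio of 1.99. Of the 72 genes, 32 also rose at least 2-fold by both treatments in Chiifu (0.119% of the detected genes). *BrSMP1*, *BrGLN1.3* and *BrROT3* were among these, which follows from their choice. The median ratio of Kenshin to Chiifu at 28 °C was 1.73 in these 32 genes and 9.28 in the other 40, a difference that the rise in Chiifu fixes in part. *BrGLN1.3* (2.84) and *BrROT3* (2.41) were above the median of the 32 and were 2 of the 13 that were past 2-fold at 28 °C, whereas *BrSMP1* (1.44) was below it. The ratio at 28 °C was smaller than at 22 °C in 26 of the 32 genes, while the difference in PI was larger at 28 °C in 24 of them.

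The study lists 64 genes for a high level in Kenshin, a list chosen on these samples. Its stated criteria were a Kenshin level over 2-fold that of Chiifu at 22 °C, and 2-fold or more under warming and minor warming. The folds that the study prints for these treatments are between temperatures within a line. Within Kenshin, 62 of the 64 genes rose at least 2-fold by minor warming and 61 by warming, the 3 genes among them in both cases. At 22 °C, *BrROT3* had the rank 8 of the 64 by the ratio of Kenshin to Chiifu, *BrSMP1* the rank 15 and *BrGLN1.3* the rank 48, with a median of 3.01 over the list and of 1.02 over all detected genes. The highest of the list was Bra025860, a RING/U-box protein (88.5), and the lowest was *BrPIF6* (Bra007660), a phytochrome-interacting factor (1.95). At 28 °C the 3 genes were in the lower part of the list, with ranks of 42 for *BrGLN1.3*, 46 for *BrROT3* and 55 for *BrSMP1*, all below the list median. A ratio of at least 2 at 28 °C was reached by 50 of the 64 genes, and not by *BrSMP1* (1.44). The ratios there ran between 0.810 for the small heat shock protein gene Bra006137 and 136 for Bra036841, an alpha/beta-hydrolase gene. By minor warming in Chiifu, *BrSMP1* had the rank 10, *BrROT3* the rank 12 and *BrGLN1.3* the rank 35, where the list median was 2.19. In Kenshin the ranks were 43 for *BrSMP1*, 57 for *BrROT3* and 39 for *BrGLN1.3*, all below the list median of 3.05. The 3 genes were chosen for rises in both lines, while 38 of the 64 rose at least 2-fold by minor warming in Chiifu.

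Profiles over the 6 samples were compared by Pearson's r of log2(PI + 50), given as a description of 6 points that share 2 lines. Between the 3 genes, r was 0.95 for *BrSMP1* and *BrROT3*, 0.90 for *BrSMP1* and *BrGLN1.3*, and 0.90 for *BrROT3* and *BrGLN1.3*. The 3 genes were chosen for a like pattern in these same samples, and that choice favours a high r between them. Values over 0.9 were shared by 448 genes (1.66%) with *BrSMP1*, by 494 genes (1.83%) with *BrGLN1.3* and by 345 genes (1.28%) with *BrROT3*. With *BrHSFA2* (Bra000557), a heat shock transcription factor gene, r was 0.94 for *BrSMP1*, 0.82 for *BrGLN1.3* and 0.85 for *BrROT3*. A higher r than that of *BrHSFA2* was found for 127 genes with *BrSMP1*, for 1403 with *BrGLN1.3* and for 693 with *BrROT3*. *BrHSFA2* also has the pattern that marks the 3 genes and is on the study's list, which favours a high r here too.

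The genes most like *BrSMP1* were Bra032467, Bra035025 and Bra028628, with r between 0.990 and 0.995. Those most like *BrGLN1.3* were Bra029100, Bra018416 and Bra029217 (0.994 to 0.998), and those most like *BrROT3* were Bra039932, Bra008046 and Bra017110 (0.989 to 0.997). Of these 9 genes, 7 had the same order of the 6 samples as the gene they resembled, and all had a smaller range. The ratio of the highest to the lowest PI was 1.63 for Bra032467, 2.38 for Bra029100 and 1.91 for Bra039932, against 12.2 for *BrSMP1*, 6.96 for *BrGLN1.3* and 16.2 for *BrROT3*. With nothing added to PI, these 9 genes ranked between 1 and 11 by r with the gene they resembled. By Spearman's rho, 7 of them had a rho of 1, while Bra035025 had the rank 72 for *BrSMP1* and Bra029217 the rank 425 for *BrGLN1.3*.

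**Figure D5:**
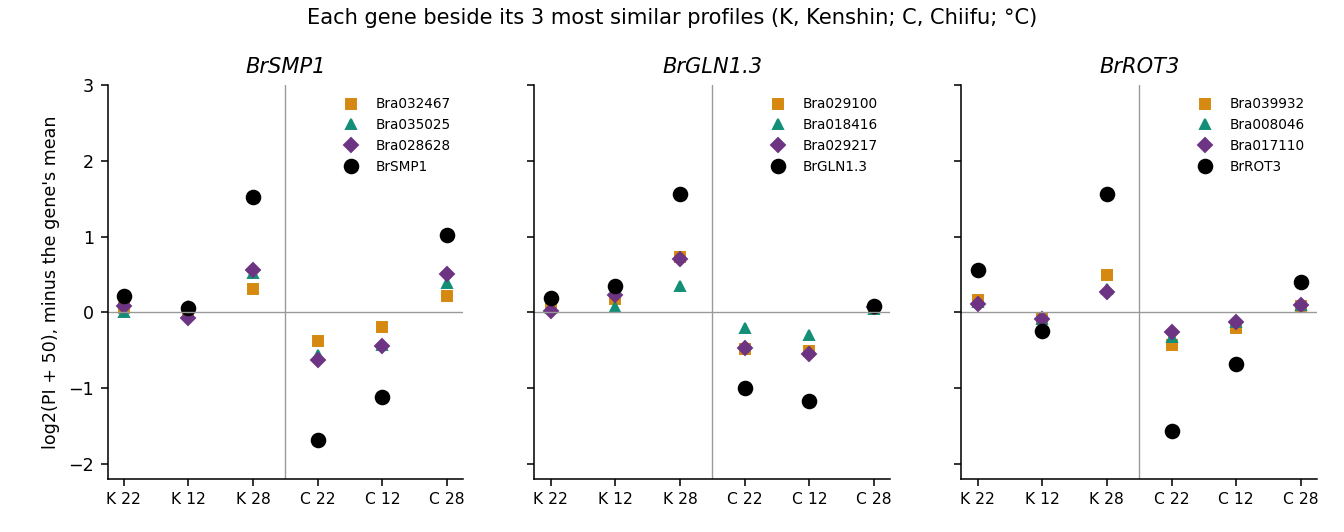
log2(PI + 50) minus the mean of the gene in the 3 Kenshin samples (K) and the 3 Chiifu samples (C) for each of the 3 genes (black circles) and the 3 genes of highest r with it (coloured symbols). The coloured symbols follow the black circles but lie closer to 0, for example with a range of 1.63-fold for Bra032467 against 12.2-fold for *BrSMP1*.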

How the data were processed

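RNA of Kenshin and Chiifu shoots was labelled with Cy3 and hybridized to the NimbleGen Br135K 3′ microarray. The authors summarised the probes to 1 linear intensity per gene, deposited for 41173 genes and 15 control features. The submitters' processing notes name RMA, and the quartiles are nearly equal between samples. Precision is limited by how many arrays there were.

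Intensities were used as deposited, with a minimum of 500 in at least 1 sample and a fold cutoff of 2. The LT change shared by the lines was fitted to log2 intensity of all detected genes with the limma package (version 3.58.1, R 4.3.3), with line as a block (2 residual degrees of freedom, Benjamini-Hochberg adjustment, threshold 0.05). Other steps used Python 3.11.15, pandas 2.3.3, numpy 2.4.6 and matplotlib 3.10.9.

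Members, lists and comparisons were chosen with earlier results of these data known. Genes named were the 3 members, the 3 profiles most like each, the genes just inside and outside the joint criteria, the extremes of the study's list in ratios compared with the members, and *BrHSFA2*. Lists for splicing (9 symbols), nitrogen assimilation (18) and brassinosteroids (19) gave 0 genes, because only 1 of 51589 RefSeq entries used for names (CAAS_Brap_v3.01) carries an array identifier. Alternatives were 50 added to each intensity, quantile normalization, median scaling, a fold cutoff of 3, an intensity minimum of 1000 or none, and, for profiles, Spearman's rho and nothing added.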

Additional observations from a re-analysis of the deposited data

Results flagged for a closer look

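The change from 22 to 12 °C had opposite signs in the lines for all 3 genes, which is why these values are listed. The ratio of 12 to 22 °C was 0.887 in Kenshin and 1.65 in Chiifu for *BrSMP1*, and 1.12 in Kenshin and 0.880 in Chiifu for *BrGLN1.3*. The gap was widest for *BrROT3*, with 0.517 in Kenshin and 2.66 in Chiifu (0.572 in Kenshin and 1.85 in Chiifu with 50 added). Among the detected genes, 16.6% were lower at 12 °C in Kenshin and higher in Chiifu, as *BrSMP1* and *BrROT3* were, and 20.7% were the reverse, as *BrGLN1.3* was. Among the 2303 genes at least 2-fold higher in Kenshin at 22 °C, a value that also chose the 3 genes, these shares were 43.2% and 4.04%. In 347 genes (1.29%), *BrROT3* among them, a lower value in Kenshin stood beside a rise past 2-fold in Chiifu. Whether the lines differ in this change was not tested, as there was a single value per line and temperature.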

How the results depend on the processing

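Of 81 ratios of the 3 genes recomputed under 50 added, quantile normalization or median scaling, 79 stayed within 1.5 times the main value. The exceptions were 2 ratios of *BrROT3* with 50 added, 4.37 for Kenshin over Chiifu at 22 °C and 3.92 for 28 over 22 °C in Chiifu. The line ratio of *BrROT3* at 28 °C divided by that at 22 °C was 0.511 with 50 added. When differences of PI replaced ratios, a choice made after seeing the data, it was 1.43 for *BrROT3*, a change of direction, 2.97 for *BrGLN1.3* and 0.999 for *BrSMP1*. The LT estimate of *BrGLN1.3* by limma, near 0 throughout, turned to 0.0078 with quantile normalization and 0.012 with median scaling. The cause was not tested.

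The counts with a fold cutoff of 3 are out of the 26948 detected genes. Genes higher in Kenshin than in Chiifu then numbered 1137 at 22 °C, 572 at 12 °C, 1479 at 28 °C and 267 at all of these. Rises by minor warming were 608 in Kenshin and 457 in Chiifu, rises by warming 775 in Kenshin and 563 in Chiifu, rises by LT 685 in Kenshin and 588 in Chiifu, and falls by LT 839 in Kenshin and 439 in Chiifu. Rises by both treatments in both lines were 35, the joint criteria left 13 genes, and 5 of these also rose in Chiifu. None of *BrSMP1*, *BrGLN1.3* and *BrROT3* was among the 13. With an intensity minimum of 1000, *BrROT3* was no longer detected, and the joint criteria gave 55 of 23645 genes, *BrSMP1* and *BrGLN1.3* among them. Without an intensity minimum, all 41173 genes were counted, and the line counts were 4443, 3443 and 5021 at 22, 12 and 28 °C. Rises by minor warming were 3440 in Kenshin and 3666 in Chiifu, rises by warming 3486 in Kenshin and 3906 in Chiifu, rises by LT 3333 in Kenshin and 2998 in Chiifu, falls by LT 3718 in Kenshin and 2990 in Chiifu, and the joint criteria gave 115 genes.

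No paired analysis was possible because the labels give no replicate number that pairs samples, so line was the only block, in the limma fit of LT. Each line and temperature had 1 sample, and there was no replicate to leave out. Without replicates, small steps between samples cannot be set against their spread, and *BrROT3* in Chiifu at 22 °C is limited by its low signal over the random-sequence feature.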

Other observations

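Of the 14 marker features, the pair numbered 6 had PI values of 585, 214 and 1116 and of 537, 192 and 1083 in Kenshin at 22, 12 and 28 °C, and of 234, 154 and 255 and of 211, 137 and 266 in Chiifu. Over the 6 samples, these features had the highest r of the 14 with *BrROT3* (0.84 and 0.82) and with *BrGLN1.3* (0.84 and 0.83). The highest r of a marker feature with *BrSMP1* was 0.86, and no marker feature exceeded 0.9 with any of the 3 genes. The features were chosen after their values had been seen.

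Within the 32 genes that met the joint criteria and rose in Chiifu as well, the rise from 22 to 28 °C in units of PI agreed within 10% between the lines for 5 genes, *BrSMP1* among them.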
